A study of Mus musculus with 21 samples.

Results

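Transcript levels of 10 genes of macrophages, the phagocytes that reside in the tissue between the testis cords, were followed through mouse testis development: Adgre1, Csf1r, C1qa, C1qb, C1qc, Lyz2, Cd68, Mrc1, Aif1 and Fcer1g. The members were taken as the probe sets whose platform gene symbol is one of these names, which gave 14 of the 45101 probe sets on the array, with 3 probe sets each for Csf1r and C1qb. All 10 genes passed the filter on low values and stood among the 14338 genes tested. The arrays measured whole testes of mice of the outbred CD-1 stock, wild-type in every group and with no drug treatment. There were 5 arrays of gestation day (gd) 11 at Theiler stage 18, each from a pool of 2, and 3 arrays of gd12 at Theiler stage 20, each from a pool of 5. Single animals gave 3 arrays each of gd14 (Theiler stage 22), gd16 (stage 24), gd18 (stage 26) and postnatal day (pnd) 2 (stage 27). A separate array held a pool of 8 whole newborns of pnd 0.5, 4 male and 4 female, whose strain the labels do not give. Pool sizes follow the sample labels, whereas the design text of the series describes triplicates of single animals from different dams. Where tissue was pooled, replicate error is between pools and not between animals.

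Macrophages reach the fetal testis from yolk sac and later fetal haematopoietic sources, settle near vessels and the cord walls, and clear dying and misplaced cells. Their survival depends on signalling through Csf1r, the receptor for the cytokines Csf1 and Il34. None of the 10 genes is used by macrophages alone: Lyz2 is also a neutrophil gene, Fcer1g a mast cell and neutrophil gene, and Mrc1 is found on some endothelial cells.

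Levels are the deposited intensities, on a linear scale with the same trimmed mean on every array. Changes are differences between stage means of log2(intensity + 22.4), later stage minus earlier stage, from 1 limma fit over the 20 testis arrays, and p-values were adjusted by the Benjamini-Hochberg method over all 14338 genes. A gene passed the test at an adjusted p below 0.05. Because a probe set's brightness depends on its sequence, levels were compared between arrays and not between genes.

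Most of the macrophage genes were lowest in the middle of gestation and highest around birth. By stage means of log2(intensity + 22.4), the lowest stage was gd14 for 7 of the 10 genes and gd12 for C1qa, Fcer1g and Lyz2, whereas 15.2% of all genes tested were lowest at gd14 and 14.6% at gd12. On the same scale the highest stage was pnd2 for Mrc1, Fcer1g, Lyz2, Cd68 and Aif1, gd18 for C1qa, C1qc, Csf1r and Adgre1, and gd11 for C1qb. In linear intensities 2 of these places differ: C1qa was lowest at gd14 (165 ± 62.1, and 173 ± 100.8 at gd12; SD, n = 3 each), and C1qb was highest at gd18 (547 ± 301, n = 3, and 520 ± 155 at gd11, n = 5), in both cases by less than the spread between arrays. In limma's F-test over the 6 stages 9 of the 10 genes changed, in a table where 68.3% of all genes did, and Adgre1 was the exception (adjusted p = 0.172). In whole tissue, fewer macrophages and less RNA of a gene per macrophage cannot be told apart.

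**Figure D1:**
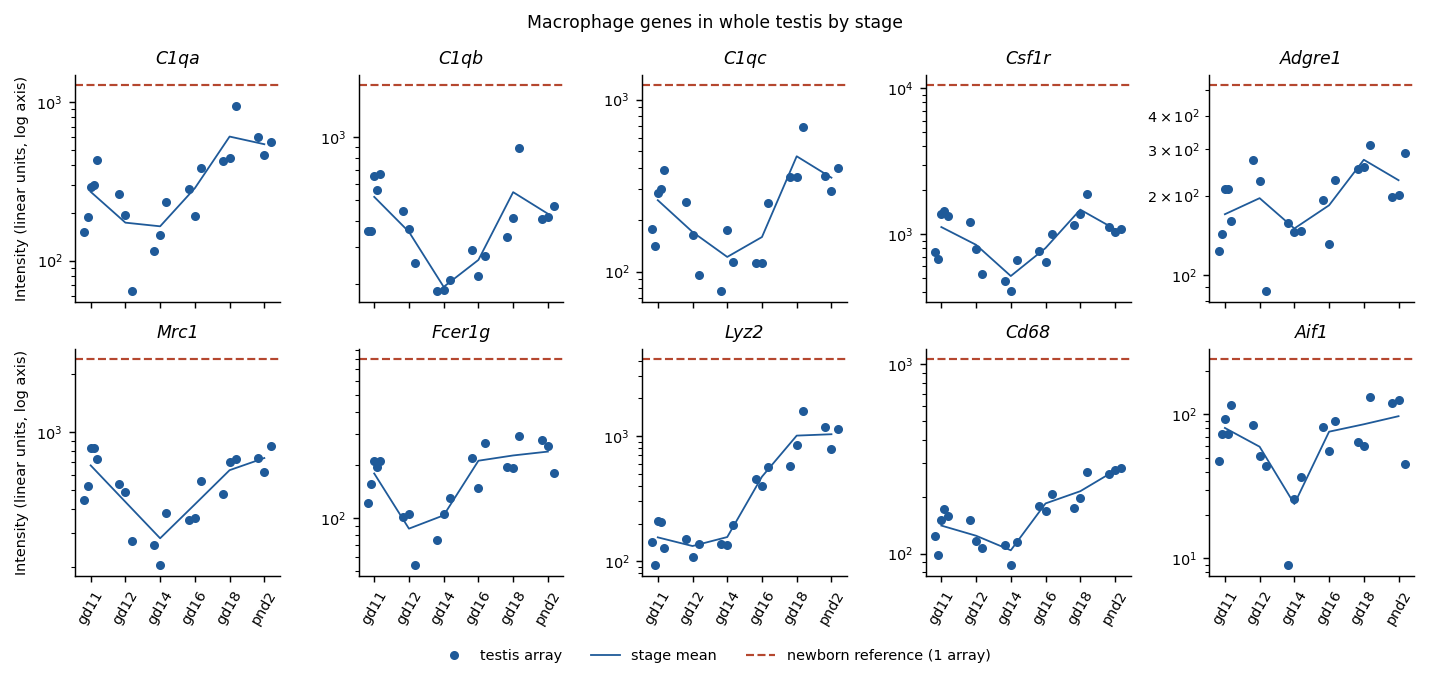
Intensity of the 10 macrophage genes on each testis array (points, linear units on a log axis) with the stage mean (line), from gd11 to pnd2, and the single newborn reference array (dashed). The 3 gd14 arrays of C1qb sat between 184 and 208, below every gd11 array, and no testis point reaches the dashed line.

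The promoter windows of C1qb, C1qc and Mrc1, which shared the low level at gd14, and of Lyz2, which had its own course, are shown next. They are the 250 bases before the annotated start in RefSeq (mouse assembly GRCm38.p6), on the strand of the gene. Capitals mark each GAGGAA, or TTCCTC on the other strand, a sequence that the macrophage transcription factor PU.1 is known to bind. The shorter GGAA within it was not marked, and it also stands in the Lyz2 window. The C1qb window is chr4:136886201-136886450 on the minus strand, the C1qc window chr4:136892915-136893164 on the minus strand, the Mrc1 window chr2:14229164-14229413 on the plus strand and the Lyz2 window chr10:117282273-117282522 on the minus strand.
C1qb: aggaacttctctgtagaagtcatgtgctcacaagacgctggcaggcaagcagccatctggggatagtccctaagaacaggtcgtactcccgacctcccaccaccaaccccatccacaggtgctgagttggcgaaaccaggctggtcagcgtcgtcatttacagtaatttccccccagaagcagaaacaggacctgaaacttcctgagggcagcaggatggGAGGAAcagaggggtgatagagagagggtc
C1qc: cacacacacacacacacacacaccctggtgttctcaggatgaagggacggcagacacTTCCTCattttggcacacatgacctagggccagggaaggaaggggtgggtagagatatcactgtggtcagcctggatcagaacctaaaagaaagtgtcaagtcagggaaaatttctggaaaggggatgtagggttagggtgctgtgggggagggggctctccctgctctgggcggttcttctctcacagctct
Mrc1: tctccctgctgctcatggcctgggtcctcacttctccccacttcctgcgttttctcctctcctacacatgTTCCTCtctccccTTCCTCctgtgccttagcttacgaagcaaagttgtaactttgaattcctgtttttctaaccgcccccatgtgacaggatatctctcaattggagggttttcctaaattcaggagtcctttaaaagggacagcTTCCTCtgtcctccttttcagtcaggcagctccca
Lyz2: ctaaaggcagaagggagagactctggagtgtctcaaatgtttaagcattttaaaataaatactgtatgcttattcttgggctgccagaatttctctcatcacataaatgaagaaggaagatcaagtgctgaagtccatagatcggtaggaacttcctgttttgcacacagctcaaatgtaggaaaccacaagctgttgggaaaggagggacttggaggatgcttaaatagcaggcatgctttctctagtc

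The 6 letters stood once each in the C1qb and C1qc windows and at 3 places in the Mrc1 window, and did not occur in the Lyz2 window. Of the 7 members with a window, 5 held the letters on either strand (Cd68 and Aif1 once each, besides the 3 above). Fcer1g, which also fell at gd14 against gd11, held none, like Lyz2. Across all 32851 mouse promoter windows of the same length, 23.3% held them. The match is a description of these letters and no measurement of binding. Windows of Adgre1, C1qa and Csf1r were not used here.

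Csf1r, the receptor that macrophages need to survive and divide, was low at gd14 and high again before birth. Probe set 1419872_at read 754, 673, 1379.8, 1438 and 1341 at gd11, 1214, 785 and 533 at gd12, and 474, 406 and 668 at gd14. It then read 764, 643 and 999 at gd16, 1149.8, 1382 and 1883 at gd18, and 1117, 1040.0 and 1085 at pnd2. All gd14 arrays lay below all gd11 arrays and below all gd18 and pnd2 arrays. The gd14 level fell below gd11 (-1.04 ± 0.27, SE; adjusted p = 0.00427, limma). The level at gd18 was 2.78-fold that at gd14 (1.47 ± 0.30; adjusted p = 0.00145), and at pnd2 it was 2.09-fold that at gd14 (1.06 ± 0.30; adjusted p = 0.0111). The rise at pnd2 did not pass without gd14 replicate 11 (0.91, adjusted p = 0.054). At pnd2 Csf1r stood at 1081 ± 38.5, against 1117 ± 371 at gd11 (SD, n = 3 and 5), a difference of 0.02 that did not pass (adjusted p = 0.956).

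The other Csf1r probe sets did not all follow. In a fit over all 26713 probe sets that passed the filter, 1419873_s_at fell at gd14 against gd11 (-0.92, adjusted p = 0.0083) and rose at gd18 against gd14 (1.28, adjusted p = 0.00353). Probe set 1423593_a_at read 267, 232 and 287 at gd14, against 282, 177, 415, 329.5 and 301 at gd11, with overlapping ranges. Its changes were -0.14 at gd14 against gd11 and 0.39 at gd18 against gd14, neither of which passed (adjusted p = 0.616 and 0.246, limma).

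Adgre1, the surface receptor F4/80 by which mouse macrophages are usually recognised, was the member whose change with stage did not pass. Probe set 1451161_a_at read 124, 143, 212, 212 and 160.2 at gd11, 272, 227 and 87.1 at gd12, and 158, 146 and 147 at gd14. Later arrays read 192, 131 and 228 at gd16, 252, 255 and 311 at gd18, and 197, 200.2 and 288 at pnd2. All gd18 and pnd2 arrays lay above all gd14 arrays, yet neither difference passed (0.77 ± 0.30, adjusted p = 0.0609 at gd18; 0.52 ± 0.30, adjusted p = 0.192 at pnd2). The gd12 arrays spanned more than the gd14 to gd16 arrays together, from 87.1 to 272.

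Mrc1, the mannose receptor that takes up glycoproteins, fell and returned like Csf1r. Probe set 1450430_at read 444, 526, 827, 827 and 726 at gd11, 538, 489 and 272 at gd12, and 259, 203 and 379 at gd14. It read 349.9, 358 and 554 at gd16, 477, 701 and 721 at gd18, and 730.3, 619.8 and 844 at pnd2. No gd14 array reached any array of gd11, gd18 or pnd2. The change at gd14 against gd11 was -1.19 ± 0.25 (adjusted p = 0.000808, limma), that at gd18 against gd14 was 1.13 ± 0.28 (adjusted p = 0.00598), and that at pnd2 against gd14 was 1.35 ± 0.28 (adjusted p = 0.00122).

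Fcer1g, the signalling chain shared by Fc receptors, was the only member to fall at gd12 against gd11, where 10.2% of all genes did. Probe set 1418340_at read 102, 106 and 54.0 at gd12, against 122, 156, 212, 194 and 211 at gd11, and the ranges did not overlap (-0.89 ± 0.24; adjusted p = 0.0135, limma). This call was lost without gd12 replicate 15 (-0.65, adjusted p = 0.116) and in a fit of the arrays of these 2 stages alone (adjusted p = 0.064). At gd14 it read 75.3, 105 and 131, at gd16 221, 148 and 266, at gd18 195, 193 and 292, and at pnd2 279, 255 and 181. All arrays from gd16 on lay above all gd12 and gd14 arrays. Its rise at gd16 against gd14 was 0.88 ± 0.27 (adjusted p = 0.0455), and its rise at gd18 against gd14 was 0.98 ± 0.27 (adjusted p = 0.0121). The gd16 call was lost when any of 11 arrays was left out: gd16 replicates 7 and 9, all 3 gd14 arrays, pnd2 replicates 1 and 2, gd18 replicates 4 and 5, and gd11 replicates 17 and 19, with adjusted p up to 0.203. It was also lost with 1 as the added constant (adjusted p = 0.0543), with no filter on low values (0.0622) and with every probe set adjusted over all probe sets (0.0547). The gd18 call was lost without gd18 replicate 6 (0.80, adjusted p = 0.0624) and without gd14 replicate 10 (0.81, adjusted p = 0.0707). Its fall at gd14 against gd11 (-0.68 ± 0.24, adjusted p = 0.0317) was lost without gd14 replicate 10 or 11 or gd11 replicate 18, 19 or 20, with adjusted p up to 0.168, and with only these 2 stages compared (adjusted p = 0.0533). The mast cell list, whose cells also use Fcer1g, had 6 of 7 genes tested, with a median change of -0.06 at gd12 against gd11 and 0.19 at gd16 against gd14. Its median change was 0.70 at gd18 against gd14 and 0.98 at pnd2 against gd14. The summed intensity of the mast cell list ran from 569 to 1513 at gd11, 614 to 944 at gd12 and 567 to 659.5 at gd14. It ran from 694 to 787 at gd16, 673 to 1410 at gd18 and 1020 to 1203 at pnd2. The brightest genes in that sum were Gata2 (701 ± 298 at gd11, 266 ± 58.0 at gd14) and Hdc (193 ± 229 and 213 ± 32.5). The mast cell proteases Cpa3, Cma1, Tpsb2 and Tpsab1 were named after their values were seen. The first 3 each averaged 52.5 or less at every stage up to gd16, and 156 ± 119, 155 ± 92.8 and 112 ± 108 at gd18. Tpsab1 averaged 83.8 at gd12 and 59.7 at gd18. The neutrophil list had a median change of -0.30 at gd12 against gd11 and 1.68 at gd16 against gd14. The part of mast cells and of neutrophils in the Fcer1g values was not tested.

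C1qa, C1qb and C1qc encode the 3 chains of C1q, the molecule that starts the classical complement pathway and tags debris for uptake, and all 3 genes lie on chromosome 4. C1qa (1417381_at) read 152, 188, 292, 298 and 428 at gd11, 262, 194 and 64.1 at gd12, and 115, 145 and 234 at gd14. At later stages it read 285, 191 and 382 at gd16, 425, 444 and 948 at gd18, and 604, 466 and 556 at pnd2. The pnd2 arrays all lay above the gd11 arrays, and the gd18 arrays all lay above the gd14 arrays. C1qa rose 3.25-fold at gd18 against gd14 (1.70 ± 0.41; adjusted p = 0.00503, limma) and 2.02-fold at pnd2 against gd11 (1.01 ± 0.37; adjusted p = 0.0295). The rise at pnd2 against gd11 did not pass without gd11 replicates 16 and 17 (0.65, adjusted p = 0.157), and it was lost without pnd2 replicate 1 (adjusted p = 0.095), pnd2 replicate 3 (0.0774), gd11 replicate 16 (0.0616) or gd11 replicate 17 (0.0621), or with array weights (0.0529).

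C1qb (1417063_at) had its tightest values at its low point. It read 356, 356, 654, 562 and 671 at gd11, 444, 365 and 253 at gd12, and 184, 187 and 208 at gd14. It read 289.6, 219 and 271 at gd16, 336, 414 and 893 at gd18, and 409.8, 416 and 469 at pnd2. The gd14 arrays lay below every array of the other stages. C1qb fell at gd14 against gd11 (-1.28 ± 0.26; adjusted p = 0.000662, limma), rose at gd18 against gd14 (1.28 ± 0.30; adjusted p = 0.00353), and at pnd2 was 432 ± 32.6, against 520 ± 155 at gd11 (-0.21, adjusted p = 0.546). The other C1qb probe sets moved the same way by less. Probe set 1434366_x_at changed by -0.64 at gd14 against gd11 (adjusted p = 0.0423) and by 0.72 at gd18 against gd14 (adjusted p = 0.0625), and 1437726_x_at by -0.43 and 0.61, which did not pass (adjusted p = 0.251 and 0.183). The ending _x_at marks probes that can also bind other transcripts.

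C1qc (1449401_at) read 177, 140.3, 288, 303 and 392 at gd11, 252, 162 and 95.1 at gd12, and 76.8, 174 and 114 at gd14. It read 112, 113 and 252 at gd16, 357, 356 and 691 at gd18, and 361, 292 and 401 at pnd2. Every gd18 and pnd2 array lay above every gd14 and gd16 array. C1qc was the only member that rose at gd18 against gd16, where 1.7% of all genes did (1.45 ± 0.39; adjusted p = 0.035, limma), a call that was lost without gd18 replicate 4, 5 or 6 or gd16 replicate 7 or 8, with adjusted p up to 0.169. Its rise at gd18 against gd14 was 3.38-fold (1.76 ± 0.39; adjusted p = 0.00243). Its fall at gd14 against gd11 (-0.95 ± 0.34; adjusted p = 0.0328) was lost without gd14 replicate 10 or 12 or gd11 replicate 18, 19 or 20, with adjusted p up to 0.172, and with only these 2 stages compared (adjusted p = 0.0552). Its rise at pnd2 against gd14 (1.42 ± 0.39; adjusted p = 0.00815) was lost without gd14 replicate 10 (1.18, adjusted p = 0.0514).

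Lyz2, which encodes the lysozyme of macrophages and granulocytes, stayed low to gd14 and was several-fold higher afterwards. Probe set 1423547_at read 143, 92.7, 209, 205 and 127 at gd11, 151, 107 and 138 at gd12, and 138, 134 and 196 at gd14. It read 455, 400.1 and 566 at gd16, 572, 854 and 1597 at gd18, and 1174, 786 and 1140.1 at pnd2. No array up to gd14 overlapped any array from gd16 on. The rise was 2.79-fold at gd16 against gd14 (1.48 ± 0.31; adjusted p = 0.00537, limma), 5.36-fold at gd18 against gd14 (2.42 ± 0.31; adjusted p = 2.15e-05) and 6.06-fold at pnd2 against gd11 (2.60 ± 0.27; adjusted p = 2.54e-07). These 3 calls held in every alternative and every leave-one-out fit.

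Of the neutrophil genes, some rose with Lyz2 at gd16 against gd14, and some fell at pnd2 against gd18, where the change of Lyz2 did not pass. Of the 10 genes in that list 9 were tested, of which 5 rose and 0 fell at gd16 against gd14 (median change 1.68), where 5.39% of all genes rose. At gd14 against gd11, 3 rose and 0 fell, where 23.7% of all genes rose and Lyz2 changed by 0.04. At pnd2 against gd18, 0 rose and 2 fell (median -1.29), where 2.54% of all genes rose and 5.26% fell. Their summed intensity ran from 463 to 1045 over the gd14 arrays, 3028 to 4317 at gd16, 1818 to 5550.2 at gd18 and 966 to 1574 at pnd2. S100a8, a granulocyte calcium-binding protein, averaged 121 ± 98.9 at gd14, 1178 ± 262 at gd16, 1369.9 ± 861 at gd18 and 490.4 ± 172 at pnd2 (SD, n = 3 each). For Lyz2 the difference at pnd2 against gd18 was 0.14, which did not pass (adjusted p = 0.842, limma). The part of neutrophils in the Lyz2 values was not tested. Lyz1, a near-identical copy of Lyz2 that was named after its values were seen, averaged 137 at gd14, 1997 at gd18 and 1956 at pnd2, and how far the probe sets of these copies share transcripts was not tested.

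Cd68, a lysosomal membrane protein, and Aif1, the actin-binding protein Iba1, complete the group. Cd68 (1449164_at) read 124, 98.9, 150.2, 172 and 158 at gd11, 149.7, 116 and 107 at gd12, and 111, 86.8 and 115 at gd14. It read 178, 167 and 207 at gd16, 175, 196 and 269 at gd18, and 263, 276 and 284 at pnd2. Every pnd2 array lay above every array of gd11, gd12 and gd14, and every gd16 array above every gd14 array. Cd68 rose at gd16 against gd14 (0.71 ± 0.21; adjusted p = 0.0337, limma), a call lost without gd16 replicate 7 or 9 or any of the 3 gd14 arrays, with adjusted p up to 0.14, and with no filter on low values (adjusted p = 0.0524). It rose 1.85-fold at pnd2 against gd11 (0.88 ± 0.18; adjusted p = 0.000558) and 2.36-fold at pnd2 against gd14 (1.24 ± 0.21; adjusted p = 0.000162).

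Aif1 (1418204_s_at) was measured close to background, with 10 of its 20 testis arrays under 71.6, the 40th percentile of all testis values. It read 47.3, 73.1, 92.7, 73.6 and 116 at gd11, 83.8, 51.2 and 44.0 at gd12, and 8.94, 25.7 and 36.9 at gd14. It read 81.7, 55.5 and 90.4 at gd16, 64.4, 59.9 and 132 at gd18, and 120.0, 127 and 45.1 at pnd2. The 3 gd14 arrays were the lowest of all 20. Aif1 fell at gd14 against gd11 (-1.17 ± 0.32; adjusted p = 0.00681, limma) and rose at gd18 against gd14 (1.21 ± 0.36; adjusted p = 0.0189) and at pnd2 against gd14 (1.33 ± 0.36; adjusted p = 0.00832). Without gd14 replicate 10 these became -0.91 (adjusted p = 0.0572), 0.95 (adjusted p = 0.103) and 1.08 (adjusted p = 0.0537), and without gd18 replicate 6 the rise at gd18 was 0.92 (adjusted p = 0.0972). Its size also depended on the constant added before the logarithm: with 1 and 64 in place of 22.4, the fall at gd14 against gd11 was -1.86 and -0.71.

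Between adjacent stages, few of the members passed the test. At gd12 against gd11, 1 of 10 genes fell, where 10.2% of all genes did, and the median change was -0.46, against -0.01 over all genes. At gd14 against gd12 none passed in limma, where 11.4% of all genes rose and 7.34% fell, and 3 members (C1qb, Csf1r and Aif1) had an unadjusted p below 0.05. At gd16 against gd14, 3 of 10 rose and 0 fell (5.39% and 4.99% of all genes), all 10 differences were positive with a median of 0.67, and the ranges of 5 did not overlap (22.5% of all genes, higher). At gd18 against gd16, 1 of 10 rose and 0 fell (1.7% and 3.18% of all genes), again with all 10 differences positive, a median of 0.71 and 6 non-overlapping ranges (15.1%, higher). At pnd2 against gd18 none passed in limma or had an unadjusted p below 0.05 (2.54% of all genes rose and 5.26% fell), and the members' median change was 0.00. From end to end, at pnd2 against gd11, C1qa, Lyz2 and Cd68 rose, which is 3 of 10 beside 24.2% of all genes.

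Comparisons with gd14 were added after the values had been seen, because most members were lowest there, and they share the gd14 arrays with each other and with the adjacent comparisons. Such a choice favours differences from gd14. At gd14 against gd11, 6 of 10 genes fell (C1qb, C1qc, Csf1r, Mrc1, Fcer1g and Aif1), where 19.3% of all genes did, and the median change was -0.81, against 0.04 over all genes. Without gd14 replicate 10 only 3 of the 6 passed. At gd18 against gd14, 9 of 10 rose (14.0% of all genes), with a median of 1.24, against 0.05 over all genes. The ranges of all 10 members were apart there, as were those of 25.9% of all genes in that direction. At pnd2 against gd14 the same count of 9 rose (14.6% of all genes), and all 10 ranges were apart (24.1%). Adgre1 was the member that missed in both.

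**Figure D2:**
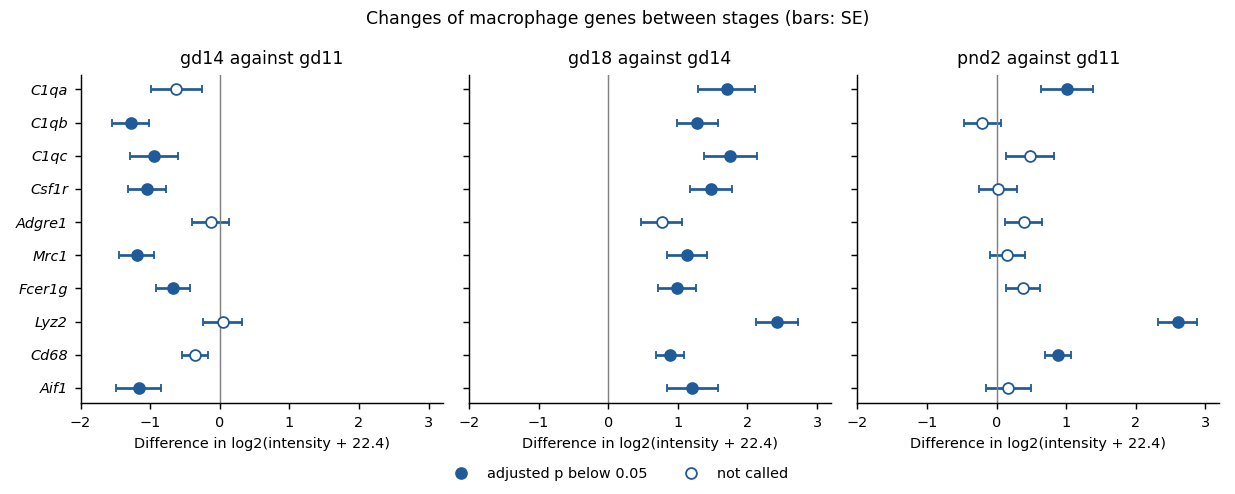
Change of each macrophage gene in log2(intensity + 22.4) for 3 comparisons, with SE bars from limma. Filled points passed an adjusted p of 0.05: 6 lie below 0 at gd14 against gd11, 9 lie above 0 at gd18 against gd14, and 3 (C1qa, Lyz2 and Cd68) lie above 0 at pnd2 against gd11.

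Within a stage, the macrophage genes were often high or low together on the same array. Replicate 6 of gd18 held the highest value of its stage for all 10 genes, lying 0.49 above the gd18 mean on the log2 scale when averaged over the genes. Replicate 15 of gd12 held the lowest value for 9 of 10 genes (mean deviation -0.49), and replicate 13 the highest for 9 (0.42). Replicate 9 of gd16 was highest for 9 genes, and replicate 12 of gd14 for 8. With the gd18 array left out, 7 of 10 members rose at gd18 against gd14. At gd11, replicates 16 and 17 held the lowest value of every gene, replicate 16 for 6 and replicate 17 for 4. The same arrays carried the most neural transcript: the mean log2 level of 8 neural genes, among them the neurofilament genes Nefl and Nefm, was 12.32 and 11.61 there and 8.06 to 9.13 on the other gd11 arrays. Their endothelial sum was also the lowest of gd11, at 3379 and 2873, against 5685 to 8004. Without both arrays, 8 of 10 members fell at gd14 against gd11 and 2 of 10 rose at pnd2 against gd11. The part of surrounding tissue in these values was not tested.

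**Figure D3:**
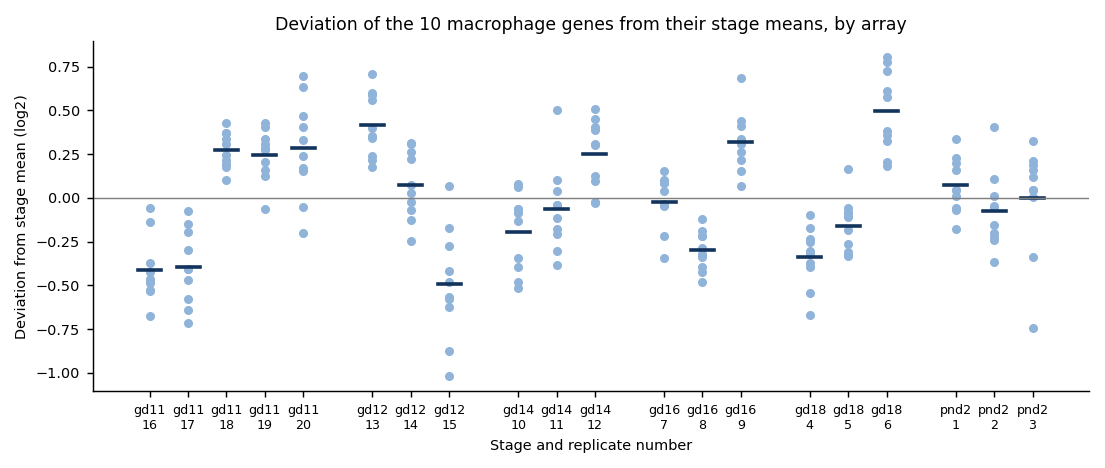
Deviation of each macrophage gene (points) from its stage mean in log2(intensity + 22.4) on each of the 20 testis arrays, with the mean over the 10 genes (bar). The bar of gd18 replicate 6 stands at 0.49 and that of gd12 replicate 15 at -0.49.

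Other cell types changed over the same stages. Endothelial genes (8 of 8 tested) gave 2 falls and 0 rises at gd14 against gd11 (median -0.37), where 19.3% of all genes fell, and 1 rise and 0 falls at gd18 against gd14 (median 0.45), where 14.0% rose, so these counts lie near the shares of all genes. Their summed intensity was 2873 to 8004 at gd11, 3118 to 3178 at gd14, 4050.5 to 4525 at gd18 and 2458 to 2964 at pnd2, where the macrophage genes were high. At gd14 against gd11, 5 of 6 Sertoli cell genes, all 4 tested fetal Leydig cell genes and all 5 germ cell genes rose. The medians were 5.30, 6.08 and 4.73, and 23.7% of all genes rose there. Of 8 tested erythroid genes, 7 fell at pnd2 against gd11, where 24.4% of all genes did. Their sums were 447 to 577 at pnd2, against 82189 to 89257 at gd11. Lymphocyte genes were barely measurable: 6 of 8 did not pass the filter, and the sum of the B cell genes Cd79a and Cd79b stayed between 46.7 and 167 on every testis array. The part of these cell types in the macrophage values was not tested.

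**Figure D4:**
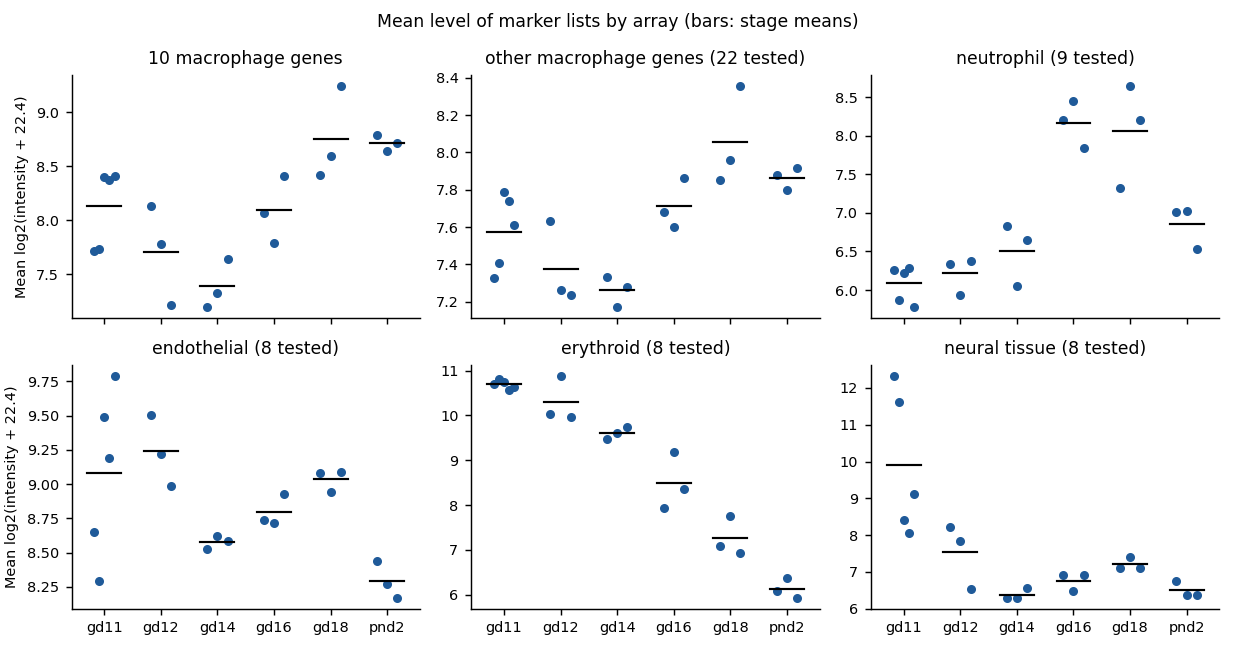
Mean log2(intensity + 22.4) of the 10 macrophage genes and of 5 other gene lists on each testis array (points), with stage means (bars), from gd11 to pnd2. The macrophage lists dip at gd14, the neutrophil list steps up at gd16 and comes down at pnd2, and 2 of the gd11 arrays stand above 11 in the neural list.

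The genes whose course over the 20 arrays came closest to the mean of the 10 members included other myeloid genes. Likeness was measured as the root-mean-square difference of centred log2 values, where 0.55 is the value of a flat line. Tyrobp, a signalling adaptor of myeloid receptors, was nearest at 0.22. It was followed by the chemokine receptor Cx3cr1 (0.25), the lysosomal protease Ctss (0.25), the lysophosphatidic acid receptor Lpar1 (0.26), Samd4 (0.27), Ccdc68 (0.27), the selenium transport protein Selenop (0.27) and the phagocyte oxidase subunit Cybb (0.27). Among the members, which contribute to that mean, Csf1r lay at 0.24 and Cd68 at 0.25, and Lyz2 was farthest at 0.84, beyond the flat line. Member by member, the gene nearest to C1qb and to C1qc was Csf1r (0.26 and 0.37), and the nearest to Csf1r was Mrc1 (0.25) and the reverse. Aif1 was nearest to the leukocyte lysosomal gene Laptm5 (0.35) and C1qa to the growth factor gene Igf1 (0.36). The nearest gene was Tbc1d17 for Adgre1 (0.23), Rcor3 for Cd68 (0.20), Samd4 for Fcer1g (0.27) and the matrix gene Mfap4 for Lyz2 (0.42). Among all genes ranked by likeness, the nearest other member stood at place 367 for Adgre1, 501 for Cd68, 286 for Lyz2 and 18 for Fcer1g. Arrays share their stage and their dissection, so these values carry no test.

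The wider macrophage list, chosen with results of these data known, had 22 of 26 genes tested. By log2 means 10 of the 22 were lowest at gd14, as were 15.2% of all genes. At gd14 against gd11, 1 rose and 7 fell (median -0.40), where 23.7% of all genes rose and 19.3% fell. At gd18 against gd14, 12 rose and 0 fell (median 0.90), where 14.0% of all genes rose and 12.3% fell. At pnd2 against gd11, 6 rose and 1 fell (median 0.24). Over all genes the last comparison gave 24.2% rises and 24.4% falls, with a median of -0.03. Axl, a receptor for the uptake of dying cells, had the largest of the rises at pnd2 against gd11, at 7541 ± 556, against 1654 ± 737 (2.32; adjusted p = 1.67e-06, limma). The membrane proteins Ms4a7 (1.80), Clec4n (1.52) and the integrin chain Itgb2 (0.86) also rose, from gd11 means close to background (70.8, 33.9 and 39.7). Axl did not share the low level of the members at gd14, at 3804 ± 471, against 3527 ± 620 at gd12. In the newborn reference it read 1993, below its pnd2 mean. Trem2, Msr1 and Siglec1, macrophage surface receptors named after their values were seen, were near background at every stage.

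Of the genes that act around the members, some had their lowest stage mean at gd14 and others did not. Among 8 tested of 12 further complement genes, 5 rose and 0 fell at pnd2 against gd11, where 24.2% of all genes rose and 24.4% fell. C1ra, a protease that binds C1q, averaged 973 ± 293 at pnd2, against 69.3 ± 30.7 at gd11 (3.46 ± 0.27; adjusted p = 4e-09, limma), and its partner C1s1 rose by 2.56. Serping1, the inhibitor of both, rose by 1.44, and C2, the protease that C1s cleaves, by 2.82. The gd11 means of C1ra and C2 (69.3 and 43.9) were close to background. At gd14, where C1qb and C1qc were lowest, C1ra averaged 247 ± 56.1 and C1s1 86.2 ± 26.4, the lowest stage mean of C1s1. Of the 8 complement genes 3 were lowest at gd14, beside 15.2% of all genes. At gd14 against gd11, however, 3 of the 8 rose and 0 fell, where 23.7% of all genes rose and 19.3% fell. At gd18 against gd14, 5 of the 8 rose and 0 fell (median 1.08), where 14.0% of all genes rose and 12.3% fell. Of 13 tested of 16 growth and transcription factors, 2 were lowest at gd14, near the 15.2% of all genes, and at gd14 against gd11 5 rose and 0 fell. At pnd2 against gd11, 6 of the 13 rose and 1 fell, again beside 24.2% and 24.4% of all genes. Cebpa, a transcription factor of myeloid and other cells, rose by 3.64, Cebpb by 1.41 and Zeb2 by 0.84, and Myb, which marks haematopoietic progenitors, fell by 1.86. Csf1, the ligand of Csf1r, which like Il34 and Spi1 was named after its values were seen, averaged 199.6 at pnd2, against 322 at gd14, and fell (-0.61; adjusted p = 0.0217), while Csf1r rose in the same comparison. Il34 did not pass the filter. Spi1, which encodes PU.1, did not pass in any of the comparisons of gd14 with gd11, gd18 with gd14 or pnd2 with gd11 (adjusted p = 0.609 to 0.761).

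Of 6 tested of 12 genes that work with Fcer1g, 1 rose and 1 fell at pnd2 against gd11: the phospholipase Plcg2 changed by 1.03 and the phosphatase Ptpn6 by -0.83. Of 9 tested of 12 scavenger genes, 3 rose and 2 fell. In that comparison the counts of both lists lie near the shares of all genes, of which 24.2% rose and 24.4% fell. At gd14 against gd11, 1 of the 6 genes that work with Fcer1g rose and 0 fell. Of the 9 scavenger genes 3 rose and 4 fell there, beside 23.7% and 19.3% of all genes. At gd18 against gd14, 4 of the 9 rose and 0 fell, beside 14.0% and 12.3%. By log2 means 4 of the 9 were lowest at gd14, as were 15.2% of all genes. Gas6, the ligand of Axl, averaged 5416 ± 628 at pnd2, against 369.9 ± 184 at gd11 (3.93 ± 0.28; adjusted p = 1.06e-09, limma). Hmox1 rose by 1.99 and the folate receptor gene Folr2 by 0.98, and Pf4 fell by 1.42. Folr2 averaged 29.2 at gd11, close to background.

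The newborn reference gave higher readings than the pnd2 testis for every macrophage gene. All 10 genes were at least 2-fold lower in the pnd2 testis, as were 17.3% of all genes tested, and the median difference was -1.72 on the log2 scale, against 0.11 over all genes. The count was 9 without pnd2 replicate 3 and with 64 as the added constant. Csf1r differed most, at 1081 ± 38.5 in the pnd2 testis (SD, n = 3) and 10552 in the reference (-3.26). Adgre1 differed least, at 228 ± 51.7 and 523 (-1.14). None of the 20 testis arrays reached the reference for any of the 14 probe sets. Cx3cr1, among the nearest genes by course, went the other way, at 307 ± 53.2 in the pnd2 testis and 109 in the reference (1.32). The reference is 1 array of whole animals at another age, and the difference has no replicate check.

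**Figure D5:**
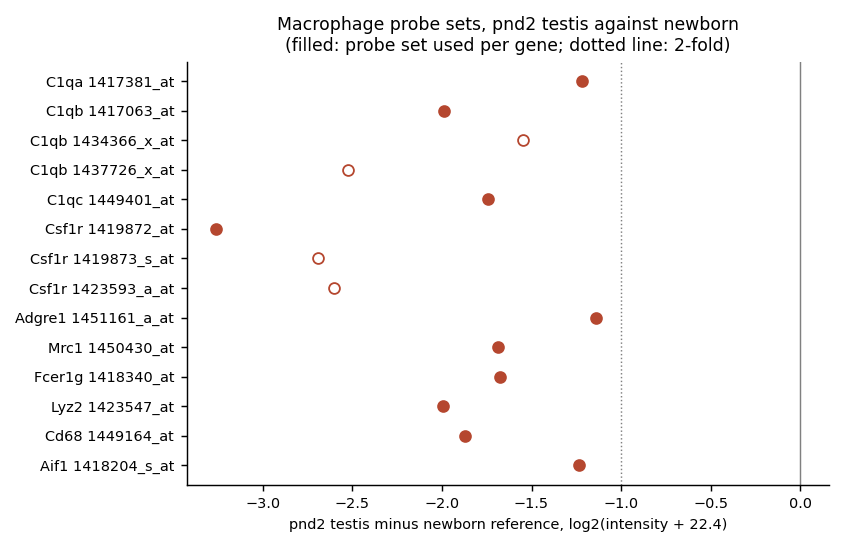
Difference between the pnd2 testis mean (n = 3) and the single newborn reference array in log2(intensity + 22.4), for the 14 probe sets of the 10 genes, filled where the probe set stands for its gene. All 14 points lie to the left of -1 (dotted line), from -3.26 for Csf1r to -1.14 for Adgre1.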

How the data were processed

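Whole testes were profiled on single-channel Affymetrix arrays, 20 testis arrays and 1 newborn reference. The deposited file gives the authors' intensity of each probe set, unlogged, and GCOS, the array maker's software, is the tool that the submitters' processing notes name. The sources used here do not give its algorithm, and detection calls were not used. Each array's mean, with 2% trimmed at either end, was 500, so no further scaling was applied. The number of arrays limits the precision.

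The constant 22.4 added before taking log2 is the 20th percentile over the testis arrays. A probe set needed 1 gene symbol and, on 3 or more testis arrays, a value over the 40th percentile of that array. The brightest probe set on average, over all stages, stood for each gene. Names came from the platform table (34945 probe sets with 1 gene, 932 with several, 9160 with none). Matching them to a GRCm38.p6 gene table changed no symbol. Tests used limma 3.58.1 in R 4.3.3 (lmFit, then eBayes with a trend on intensity; residual degrees of freedom 14, prior 4.94), checked on simulated data. The spread per gene was shared by all stages. No batch is named in the labels. The reference array entered no test, and a difference of at least 2-fold was counted there.

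The members and lists were chosen with earlier results of these data known. Besides the members, the text names up to 4 genes per list with the largest change among those that passed at pnd2 against gd11, the 8 genes nearest in course, and up to 2 markers per other cell type with the highest level. Alternatives were another pseudocount (1 or 64), filter, normalization or eBayes setting, array weights, a fit on the compared stages alone, adjustment over all probe sets, and fits without single or paired arrays.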

Additional observations from a re-analysis of the deposited data

How the results depend on the processing

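No called change of a member reversed its sign in any alternative, and 19 of 32 called changes kept their call in every alternative, including all 20 fits that left out 1 array. Most of the 32 came from comparisons added after the values were seen: gd14 against gd11, gd18 against gd14 and pnd2 against gd14. Among the calls in the other comparisons, only Lyz2 at gd16 against gd14 and Lyz2 and Cd68 at pnd2 against gd11 kept theirs in every alternative. For gd12 against gd11 the count of members that fell was 1, and was 5 with array weights, 0 with only the 2 stages compared, 4 without gd11 replicates 16 and 17, 3 without gd12 replicates 13 and 14, 0 without gd12 replicate 15 and gd18 replicate 6 together (an alternative chosen after seeing the data), and 0 to 2 without single arrays. For gd14 against gd12 it was 0, and was 1 with only the 2 stages compared, 1 without gd11 replicates 16 and 17, 1 without gd12 replicate 15 and gd18 replicate 6 together, and 0 to 2 without single arrays. For gd16 against gd14 the count that rose was 3, and was 1 with no filter on low values, 5 with only the 2 stages compared, and 1 to 4 without single arrays. For gd18 against gd16 it was 1, and was 0 with eBayes without trend, 4 with array weights, 2 with only the 2 stages compared, 4 without gd11 replicates 16 and 17, 0 without gd12 replicate 15 and gd18 replicate 6 together, and 0 to 1 without single arrays. For gd14 against gd11 the count that fell was 6, and was 3 to 7 without single arrays and 4 to 8 in the other alternatives. The counts that rose stayed at 7 to 10 at gd18 against gd14 and 7 to 9 at pnd2 against gd14, and the F-test counted 8 to 10. The cause of these differences was not tested. The comparisons of gd14 with gd11, gd18 and pnd2 were chosen after seeing the data. Intensities near background, as those of Aif1, limit what a fold can show. No paired analysis was possible because the replicate numbers run on from 1 to 21 over the whole series and no stage shares a number with another.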

Other observations

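Genes of antigen presentation and of macrophage attraction were followed beside the members. Of 6 tested genes of the list of MHC class II and monocyte genes (12 in all), 4 rose and 0 fell at pnd2 against gd11 in limma, with a median of 1.01, where 24.2% of all genes rose. H2-Aa, an MHC class II chain, averaged 139 ± 8.2 at pnd2, against 34 ± 28.6 at gd11 (1.70; adjusted p = 0.000959), H2-Ab1 changed by 1.48, H2-Eb1 by 1.17, and Cd74, the invariant chain, by 0.75. At pnd2 against gd14 the median change of these 6 genes was 0.28, and that of the 10 members 1.29. The lowest stage mean of the 4 named genes was 24.8 (H2-Ab1 at gd11), near background.

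Of 5 tested of 11 chemoattractants and receptors, 2 rose and 0 fell at pnd2 against gd11, where 24.2% of all genes rose and 24.4% fell. Cx3cl1, the ligand of Cx3cr1, averaged 1028 ± 56 at pnd2, against 105 ± 28.7 at gd11 (3.08; adjusted p = 1.97e-10), and Cxcl12, which attracts many cell types, averaged 8505 ± 1138, against 2841 ± 1743 (1.79; adjusted p = 0.000243). At gd14 Cx3cl1 averaged 221 ± 21.1, the stage at which Cx3cr1 had its lowest mean, 151 ± 17.2.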
